A study of Mus musculus with 2 samples.

Results

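miR-1224 is a microRNA made from a spliced intron, and here it was read by 1 of the 420 miRNA probes of a rat code set hybridised to RNA from mouse astrocyte extracellular vesicles, the membrane-bound particles that cells shed. The probe was found by its name, rno-miR-1224, and was chosen on its counts in these same samples, high in the control and low after IL-1β, so its levels and its ratio are given as a description, with no test. The IL-1β sample held vesicles collected 2 h after interleukin-1β (a cytokine of brain inflammation) was added at 200 ng per ml. The control sample held the vesicles that untreated cells shed over 24 h, so treatment and collection time changed together and cannot be told apart. Both came from primary cortical astrocytes of day 1 GFAP-EGFP mice, in which the promoter of Gfap, an astrocyte gene, drives a green fluorescent reporter; the labels' protocol also names C57B6J mice. Cultures used between passages 3 and 10 were 98% GFAP-positive, and 8 to 10 flasks went into a preparation, per the labels. With 1 sample a group, nothing below was checked on replicates, and the 95% intervals cover counting error only. In such a bulk preparation, fewer vesicles that carry a miRNA and less of it per vesicle cannot be told apart.

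Most miRNAs are cut from a long primary transcript by the nuclear enzyme Drosha and then trimmed by Dicer. A mirtron skips the first cut: the spliceosome excises a short intron, whose ends become the ends of the hairpin that Dicer trims. miR-1224 is a mammalian mirtron of the gene Vwa5b2, and in mouse it has been reported to target the mRNA of Sp1, a transcription factor that acts on the Tnf gene. The miRNAs that vesicles carry can be taken up by other cells.

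In GRCm38.p6 the Mir1224 hairpin lies at chr16:20604452-20604536 on the plus strand, inside the span of Vwa5b2 (chr16:20589428-20605378). The hairpin is shown first, because its ends are those of an intron: it starts with GU and ends with AG, the bases at the ends of nearly all introns, printed in capitals. Below it stands the hairpin of Mir877 (chr17:35960730-35960814, minus strand), another mirtron on the code set, with the same bases in capitals. All sequences are RefSeq's for mouse, 5′ to 3′.
Mir1224 hairpin: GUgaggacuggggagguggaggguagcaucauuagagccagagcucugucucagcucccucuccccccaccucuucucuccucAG
Mir877 hairpin: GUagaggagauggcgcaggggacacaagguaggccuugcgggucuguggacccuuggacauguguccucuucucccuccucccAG

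Of RefSeq's 1005 mouse hairpins, 30 (2.99%) start with GU and end with AG, as both of these do. Both are 85 bases long. The 5p arm of miR-1224 begins at base 1 of its hairpin and the 3p arm ends at base 85, so each arm shares 1 end with the hairpin. The last 20 bases of the hairpin hold 17 C or U. The arms are given next, with the seed (bases 2 to 8, which pair with target mRNAs) in capitals.
mmu-miR-1224-5p: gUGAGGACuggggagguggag
mmu-miR-1224-3p: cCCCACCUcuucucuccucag
mmu-miR-877-5p: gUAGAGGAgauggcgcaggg

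The probe's name gives no arm, and the rat sequence it was designed for was not used here. The 5p arm holds 13 G among its 21 bases (61.9%), a share that 0.690% of RefSeq's 1738 mouse mature sequences reach. Its GC content is 66.7%, against a median of 52.2% over all of them. Its seed is shared by 0 other mouse mature sequences, miR-877-5p included. The longest run of bases that it shares with the sequence of a miRNA whose number is on the code set is 8, with miR-678. Over the mature sequences of all other mouse miRNA genes the longest run is 11, with miR-7030-5p.

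The 420 miRNA probes summed to 13514 counts in IL-1β vesicles and 16812 counts in control vesicles, and the median probe had 5 counts in both. Background was set at the mean + 2 SD of the 8 negative controls, 9.67 counts for IL-1β vesicles and 6.41 for control vesicles. 146 probes (34.8%) passed it in IL-1β vesicles, 185 (44.0%) in control vesicles, and 139 in both. All 11 probes of an astrocyte list passed in both samples, with 20.9% of all miRNA counts after IL-1β, against 25.8% in the control. Some miRNAs of other brain cells were near background, though not all on their lists: miR-124 of neurons had 5 counts in IL-1β vesicles and 1 in control vesicles, miR-223 of myeloid cells 4 and 3, and miR-338 of oligodendrocytes 1 and 1. On the whole neuron list, 2 of 8 probes passed in IL-1β vesicles and 4 of 8 in control vesicles, with summed counts of 46 and 100, and miR-137 was at 0 in the IL-1β sample. Its highest probe, miR-132, had 13 and 58 counts, above the threshold in both. The part of such cells in the result for miR-1224 was not tested. Of the microglia and leukocyte list, 1 of 3 probes passed in IL-1β vesicles and 2 of 3 in control vesicles, with sums of 20 and 26. Its probe miR-142-3p passed in both, with 10 and 12 counts. In control vesicles the neuron list and this list thus passed no less often than all probes did. The oligodendrocyte list had 0 of 3 and 1 of 3, with sums of 8 and 13.

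miR-1224 gave 86 counts in IL-1β vesicles (exact Poisson interval 68.8 to 106) and 473 counts in control vesicles (431 to 518). It stood 8.90 times over the background threshold in IL-1β vesicles and 73.8 times over it in control vesicles. Its share of all miRNA counts was 0.636% in IL-1β vesicles (exact binomial interval 0.509 to 0.785) and 2.81% in control vesicles (2.57 to 3.07), or 1 count in 157 and 1 in 35.5. Against miR-125b-5p, a brain-abundant miRNA and the highest probe of both preparations, miR-1224 reached 5.82% of its 1478 counts in IL-1β vesicles and 28.5% of its 1660 counts in control vesicles. The probe was thus above the negative-control threshold in both preparations, with the higher share in the control it was chosen for.

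By raw count miR-1224 ranked 40th of 420 in IL-1β vesicles and 9th in control vesicles. Moving its own count to the ends of its interval gave ranks 31 to 50 in IL-1β vesicles and 7 to 9 in control vesicles. Counts of different probes also depend on how well each is ligated and hybridised, so this is an order of counts and not of molecules. In percentage points of the miRNA counts, miR-1224 fell by 2.18, the third largest loss after miR-22, abundant in many tissues, which fell by 3.13, and miR-181a, abundant in brain, which fell by 2.91. Among the 20 highest control counts, it dropped by 31 places, and miR-30c, of a family expressed in many cell types, was the 1 probe that dropped by more, with 42 places. A large loss and a large drop follow from the counts that miR-1224 was chosen on.

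**Figure D1:**
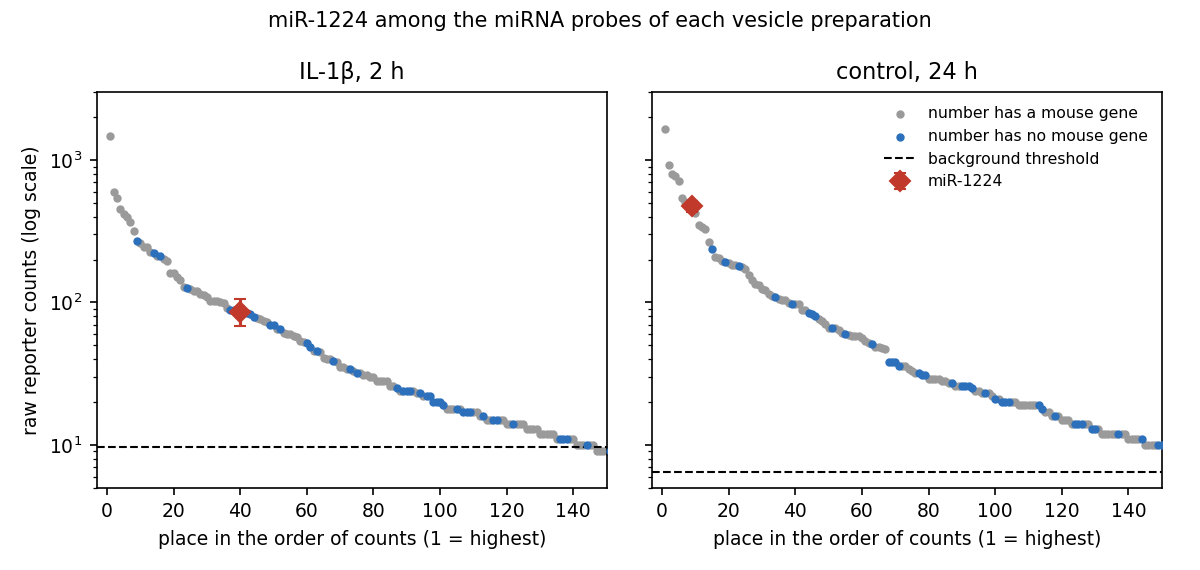
Raw reporter counts (log axis) of the miRNA probes against their place in the order of counts, for IL-1β vesicles on the left and control vesicles on the right, with places past 150 not drawn. Grey points are probes whose miRNA number has a mouse gene, blue points those with none, the dashed line is the background threshold, and the red diamond is miR-1224 with its exact Poisson interval: at 86 counts it lies among blue points in IL-1β vesicles, and at 473 counts it lies above all of them in control vesicles.

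The neighbours of miR-1224 in this order differed between the preparations. In IL-1β vesicles the 4 probes just above it were miR-100 (91 counts), miR-3589 (89), miR-3571 (88) and miR-199a-5p (87), and the 4 just below it let-7e (85), miR-3590-5p (84), miR-3596c (83) and miR-3593-5p (79). For each of these 8, the interval of the ratio of counts held 1. They were picked as nearest by that same count, so this is no test. In control vesicles the probes just above it were let-7b (708 counts), miR-125a-5p (545), let-7d (510) and miR-466c (486), and those just below it miR-199a-3p (425), miR-27a (349), miR-23a (336) and miR-100 (329). There the interval held 1 for let-7d (ratio 0.927, interval 0.817 to 1.05), miR-466c (0.973, 0.856 to 1.11) and miR-199a-3p (1.11, 0.974 to 1.27), and miR-1224 lay above miR-27a, at a ratio of 1.36 (1.18 to 1.56). The control neighbours were also picked by count, so these ratios are a description.

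Of the 8 neighbours in IL-1β vesicles, 5 were miRNAs numbered in rat with no mouse gene of that number. The code set holds 69 such probes, and their counts were taken as a second view of background in mouse RNA. That is an assumption, since only the number was matched and such a probe may still read a mouse RNA. In IL-1β vesicles 6 of the 69 (8.70%) were as high as miR-1224 or higher, and the highest, miR-3583-3p, had 270 counts. In control vesicles 0 of 69 reached miR-1224, and the highest, again miR-3583-3p, had 238 counts. The 95th percentile of these probes was 112 counts in IL-1β vesicles, above miR-1224, and 105 in control vesicles, below it. Against that stricter threshold the IL-1β level of miR-1224 is not told from background. Setting that level at the 95th percentile gives a 3.70-fold lower value in IL-1β vesicles on the scaling given next. That value is not a firm bound, since the highest such probe had 270 counts and the control count was taken without background subtraction or counting error.

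Both samples were brought to 1 scale on their 100 most abundant miRNA probes (by mean count; geometric means were equalised), which multiplied IL-1β counts by 1.14. miR-1224 then stood at 98.3 scaled counts in IL-1β vesicles against 473 in control vesicles, 4.81-fold lower (3.82 to 6.13), a log2 ratio of -2.27. Of the 139 probes above background in both, 12 (8.63%) were at least 2-fold lower in IL-1β vesicles with an interval excluding 1, and 7 (5.04%) at least 2-fold higher. The median log2 ratio of the 139 was 0.27, so miR-1224 stood at -2.54 relative to it. It had the lowest ratio of the 139, which follows from the counts it was chosen on.

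The size of the fall depended on what was taken as constant. It was 4.41-fold (3.50 to 5.62) on the 50 highest probes, 4.42-fold (3.51 to 5.63) on total miRNA count and 4.89-fold (3.88 to 6.23) on the 100 highest probes without miR-1224 itself. With no scaling it was 5.50-fold (4.36 to 7.0), on fields of view counted 5.59-fold (4.43 to 7.12) and on the median ratio 5.82-fold (4.61 to 7.41). On the probes with no mouse gene it was 6.15-fold (4.88 to 7.83), and on the 6 positive controls, RNAs added at known amounts, 8.29-fold (6.58 to 10.6). These 9 scalings thus ranged from 4.41- to 8.29-fold, all in the same direction. The calls over all 139 probes moved with the scaling: at least 2-fold lower were 36 (25.9%) on positive controls, 18 (12.9%) on the median ratio, 17 (12.2%) with none and 11 (7.91%) on total count, and at least 2-fold higher 0, 2 (1.44%), 3 (2.16%) and 11 (7.91%). A single factor moves every probe alike, so the log2 difference from the median, -2.54, and the first place in the order are the same in each. To make the counts of miR-1224 equal, IL-1β counts would have to be multiplied by 5.50, while the raw ratios of the other 138 probes ran from 0.224 to 3.00.

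The 4 mRNA probes (Actb, B2m, Gapdh and Rpl19), which serve as reference genes in cell RNA, all ran the other way, at 63.3-, 5.79-, 34.8- and 7.49-fold higher in IL-1β vesicles on the main scaling. Scaling on them turned all 139 probes (100% of those above background) at least 2-fold lower and miR-1224 84.6-fold lower (67.1 to 108). Their part in the fall of miR-1224 was not tested.

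The positive controls also form a ladder of nominal amounts, which places each count within its own lane. In IL-1β vesicles the 86 counts of miR-1224 fell between the controls of nominal amount 2 (75 counts) and 8 (246 counts). In control vesicles its 473 counts fell between those of nominal amount 8 (125 counts) and 32 (1348 counts). By interpolation on log scales miR-1224 corresponded to a nominal amount of 2.35 in IL-1β vesicles (1.87 to 3.00) and 17.4 in control vesicles (16.5 to 18.3), a 7.41-fold fall. These intervals carry only the counting error of miR-1224 and take the ladder's own counts as exact, so they are too narrow. The 4 controls of nominal amount 2 or more differed in their own ratio from 1.04 to 1.97, so taking any of them alone gave a fall of 5.73- to 10.8-fold.

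**Figure D2:**
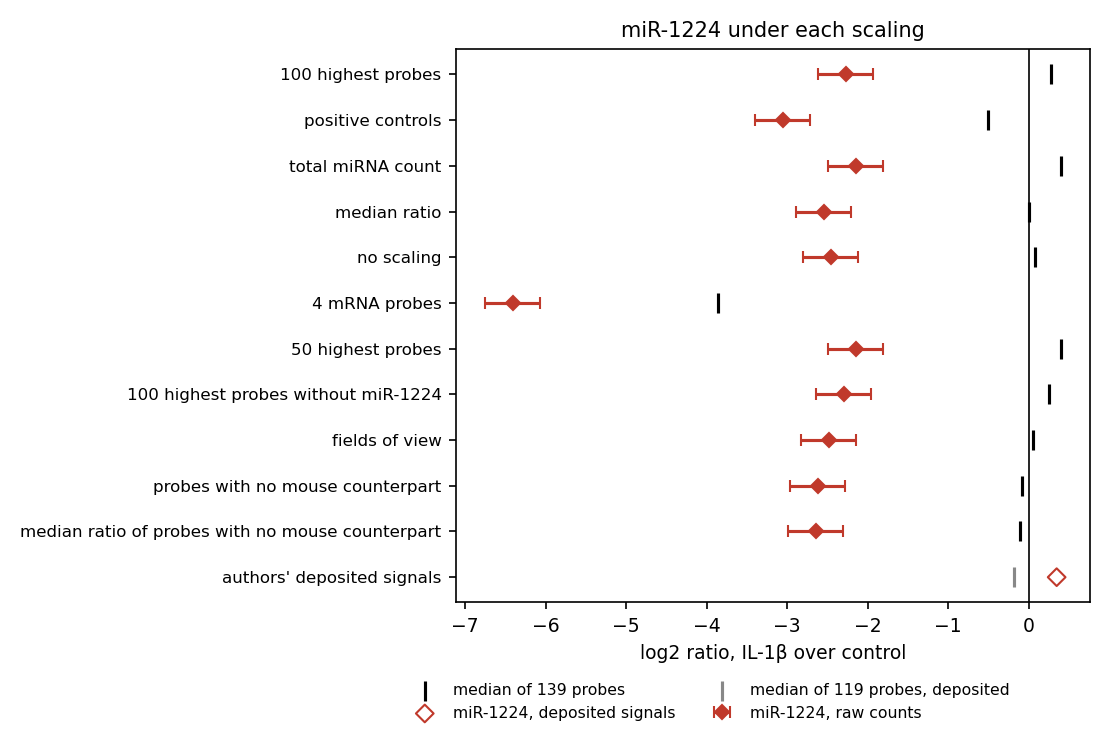
Log2 ratio of miR-1224, IL-1β over control, under each scaling of the raw counts (filled diamonds with counting intervals) and from the authors' deposited table (open diamond), with bars at the median of the probes in each. All 11 raw scalings put miR-1224 below 0 and at -2.54 relative to the median of 139 probes, and the authors' deposited table puts it at 0.35, above the median of 119 probes.

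5 probes stood nearest to miR-1224 in log2 ratio over these 2 samples, and all were lower in the IL-1β sample. miR-132, induced by neuronal activity, had 13 counts in IL-1β vesicles and 58 in control vesicles, 3.91-fold lower (2.11 to 7.77). miR-204, known from the choroid plexus and the pigment epithelium, had 34 and 143 counts, 3.68-fold lower (2.52 to 5.52), and miR-30c had 53 and 206, 3.40-fold lower (2.50 to 4.69). For these 3 the ratio of miR-1224 over their own ratio was 0.811 (0.417 to 1.69), 0.765 (0.485 to 1.23) and 0.707 (0.476 to 1.06), each interval holding 1. All 5 probes were picked as nearest in this same ratio, so the overlap is no test. miR-100, of a family that shares clusters with let-7, had 91 and 329 counts, 3.16-fold lower (2.50 to 4.04). miR-181a had 244 and 792 counts, 2.84-fold lower (2.46 to 3.29). The ratio of miR-1224 was 0.657 of the miR-100 ratio (counting interval 0.468 to 0.924) and 0.590 of the miR-181a ratio (0.445 to 0.779), values that are no test, since the probe was chosen on these counts. Both are on the astrocyte list, at ranks 13 and 3 in the control. The 14 mouse mature sequences of these 5 miRNAs include 0 with the seed of miR-1224.

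**Figure D3:**
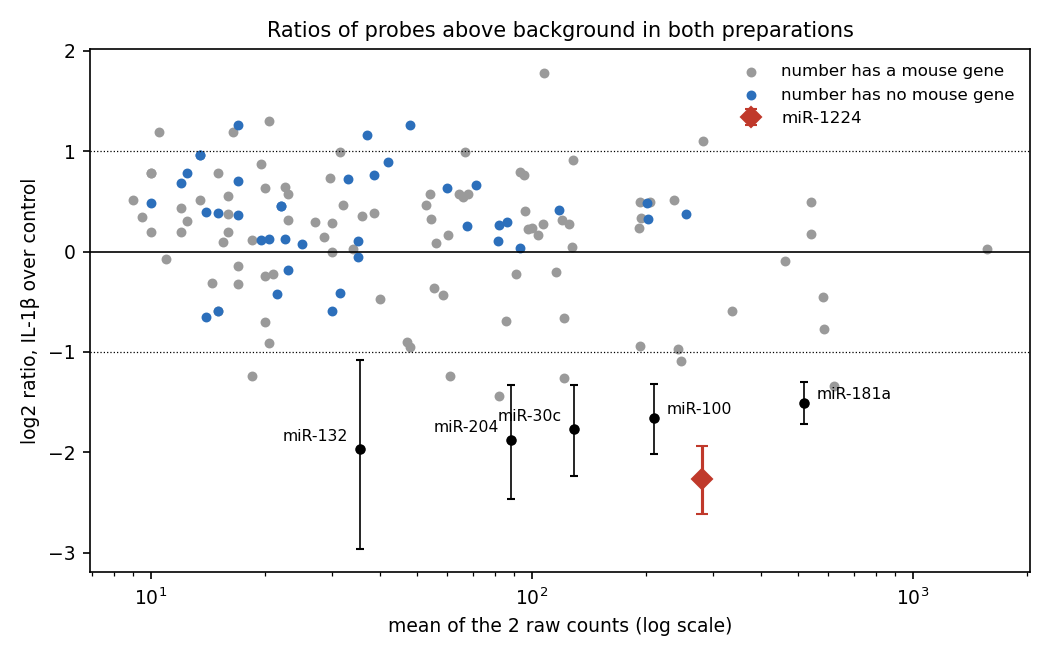
Log2 ratio, IL-1β over control on the main scaling, against the mean of both raw counts (log axis) for the 139 probes above background in both preparations. Grey points have a mouse gene of their number, blue points have none, black points are the 5 probes nearest in ratio and the red diamond is miR-1224, with 95% counting intervals; miR-1224, at -2.27, is the lowest point, dotted lines mark 2-fold, and all 40 blue points lie at ratios of 0.635 or more.

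Other miRNAs that skip Drosha or Dicer gave no such counts. The mirtron miR-877 had 3 counts in IL-1β vesicles and 2 in control vesicles. Both arms of miR-702, described in mouse as independent of Drosha, were low as well, the 3p probe with 4 and 6 counts and the 5p probe with 5 and 3. miR-320 and miR-484, which are made without Drosha from short capped transcripts, had 0 and 1 counts and 4 and 1 counts. miR-451, which the protein Ago2 cuts in place of Dicer, had 6 and 4. All 6 probes were below background in both preparations, summing to 22 counts in IL-1β vesicles and 17 in control vesicles, against 86 and 473 for miR-1224 alone. Their low counts give no ratio, so whether they moved with miR-1224 could not be seen at this depth.

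A separate table that the authors deposited gives normalized signals for 124 of the probes, made by a method not given in the sources used here, with a ratio for those that have both signals. In the authors' deposited table miR-1224 has a signal of 259.88 for IL-1β and 204.6 for the control. Its listed ratio is 1.27, against 0.208 from the raw counts on the main scaling. That table thus has miR-1224 higher where the raw counts have it 4.81-fold lower, a gap of 6.11-fold. This conflict was known when the probe was taken up, so it is described and not tested. Among the 96 probes with both signals that were above background in both raw samples, the gap was wider for miR-99b (10.5-fold) and miR-100 (6.49-fold), both of the miR-99/100 family. By the authors' deposited table, 10 of the 119 probes with both signals (8.40%) were at least 2-fold lower and 11 (9.24%) at least 2-fold higher, and miR-1224 was in neither set.

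By place in the order, the signals and the counts of miR-1224 differed more in the control sample. In IL-1β vesicles miR-1224 ranked 36th of 119 signals in the authors' deposited table and 40th of those probes by raw count. In control vesicles it ranked 42nd of 124 signals in the authors' deposited table and 9th by raw count, a drop of 33 places. A drop of at least that many places befell 29 of the 124 probes, and 4 of the 20 with the highest control counts. Its signal per raw count was 3.02 in IL-1β vesicles, against a median of 4.19 over 119 probes of the authors' deposited table. In control vesicles it was 0.433, the lowest of all 124, against a median of 2.35, with miR-32 next at 0.458 and the 19 listed probes that have no mouse gene at 0.493 to 1.33. Of the 105 listed probes with a mouse gene, 27 lay in or below that range in control vesicles. A high control count, on which miR-1224 was chosen, lowers its signal per count and enlarges its drop in place. Both values are thus a description and no test.

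Signals and counts were linked loosely in general. Spearman's rho between signal and count was 0.488 over 119 probes in IL-1β vesicles and 0.540 over 124 in control vesicles, across probes of 1 library each and as a description. By the authors' deposited table, 11 sets of probes share 1 IL-1β signal and 15 sets share 1 control signal, and in 0 of these sets do all probes have equal raw counts in that sample. Both signal columns of the authors' deposited table have the same highest value (3823.2) and the same median (94), while the raw totals differ.

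**Figure D4:**
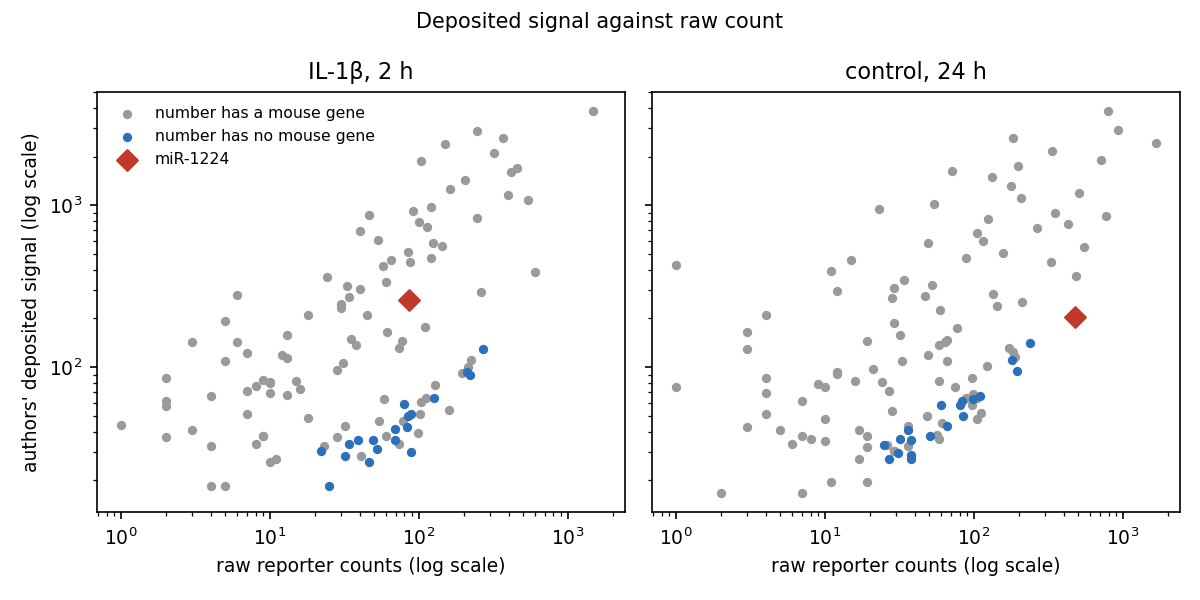
Signal in the authors' deposited table against raw reporter count (both log axes) for IL-1β vesicles on the left and control vesicles on the right, 1 point per listed probe. In IL-1β vesicles miR-1224 (red diamond, 86 counts, 259.88) lies above the blue points of similar count, probes with no mouse gene of their number; in control vesicles (473 counts, 204.6) it lies at the lower edge of the points.

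The probes nearest to miR-1224 in both signals of the authors' deposited table were miR-204 (270.56 in IL-1β vesicles and 239.37 in control vesicles), miR-24 (289.92 and 252.89) and miR-30d (231.54 and 143.22). Of the 5 probes nearest to it in raw ratio, the authors' deposited table puts miR-100 (ratio 2.05), miR-132 (1.15) and miR-204 (1.13) above 1 as well, and miR-181a (0.753) and miR-30c (0.550) below 1. On the main scaling, 11 listed probes other than miR-1224 were above background in both raw samples with a count ratio of 0.5 or less. Of these, 4 have a ratio above 1 in the authors' deposited table and 7 one below 1. With no scaling, miR-23a, miR-191, miR-99a, miR-28 and miR-30d also fell within that limit, and all have a ratio above 1 in that table. The split thus depends on the scaling, and the majority below 1 is not kept without it. In that table miR-451, with 6 and 4 raw counts, has signals of 142.17 and 210.72, and the other 5 probes that skip Drosha or Dicer are not listed.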

How the data were processed

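RNA from vesicles was measured by the NanoString nCounter assay, which ligates tags to small RNAs and counts colour-coded reporters. The deposited raw counts are unnormalized, per the file headers, for a rat miRNA code set, while the labels give mouse. The scanner counted 1139 (IL-1β) and 1121 (control) of 1150 fields. The deposited signals and their ratio were made by the authors in a way not given in the sources used here, and all 243 signals equal those of the deposited value table within 0.005.

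Ratios are of raw counts with no background subtraction, which understates changes of low probes. Intervals are exact: Poisson for counts, and Clopper-Pearson for a share or, for a ratio, for how a probe's counts divided between samples. The ratio intervals were tested on simulated Poisson counts, the case they are made for, so variation between preparations was not tested. A probe was taken to have a mouse counterpart where a miRNA gene of RefSeq's GRCm38.p6 shares its number. Named probes were miR-1224, the 4 on either side in each sample, the 3 highest of each, the 5 nearest in log2 ratio, the 3 nearest in signal, and the Drosha- or Dicer-independent list, of which miR-1225 and miR-1839 were not on the code set. The probe and the lists were chosen with earlier results of these data known. Python 3.11.15, scipy 1.17.1 and pandas 2.3.3 were used.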

Additional observations from a re-analysis of the deposited data

How the results depend on the processing

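Of 18 alternatives, 17 kept the log2 ratio of miR-1224 below 0, from -6.40 to -2.14, and 12 of them within the counting interval of the main value, -2.27. All 17 reuse the same 2 counts, so their shared sign is no independent support. The factors of the 11 scalings ran from 0.065 to 1.25, against the 5.50 that would equal the counts. Among these 12, the thresholds of the highest negative control and of mean + 3 SD only filter other probes and cannot change this ratio. The log2 ratio moved to -3.05 with positive controls, -2.89 with the positive-control ladder, -6.40 with the mRNA probes, and -2.62 and -2.65 with the geometric mean and the median ratio of probes with no mouse counterpart. The log2 ratio turned to 0.35 in the authors' deposited table, the alternative that did not use these counts, and the cause was not tested. Its first place by ratio was kept in 13 of 16. Most of these 13 could not change it, since a single factor keeps the order and a stricter filter only removes other probes. With the negative-control mean subtracted the place could have moved, and miR-1224 stayed first. The place became 2 with no filter and 1 added (miR-134, 0 against 7 counts, came first). It became 10 with the negative-control mean + 2 SD subtracted, where the 9 probes ahead of miR-1224 had 10 to 13 IL-1β counts, and 92 in the authors' deposited table. The control share became 3.20% over probes with a mouse counterpart, and 0.457% at rank 42 in the authors' deposited table.

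The 12 probes at least 2-fold lower and 7 higher depended on scaling. They became 36 and 0 with positive controls, 139 and 0 with the mRNA probes, 21 and 1 with probes with no mouse counterpart, 25 and 15 with mean + 2 SD subtracted, 3 and 1 above the 95th percentile of probes with no mouse counterpart, 20 and 16 at a fold minimum of 1.5, and 1 and 0 at 4. The 1 left at 4 was miR-1224. With lower counts within 1.5 times of 12, the higher ones were 11 with total count, 11 with the 50 highest probes, 2 with the median ratio, 3 with none, 3 with fields of view, 13 with the negative-control mean subtracted, 11 with no filter, 4 with mouse counterparts only and 11 in the authors' deposited table. Alternatives that used the ladder, the median ratio or the 95th percentile of probes with no mouse counterpart, their median as background, or mouse counterparts only for the order and the counts of calls were chosen after seeing the data.

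No paired analysis was possible because each group held 1 sample. At 86 counts, depth leaves the IL-1β level a counting interval of 68.8 to 106, and 6 of 69 probes with no mouse counterpart lay as high.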
